A study of Homo sapiens with 4 samples.

Results

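SF3A and SF3B are the protein complexes of the U2 small nuclear ribonucleoprotein (U2 snRNP), and 9 of their subunit genes are described here: SF3A1, SF3A2, SF3A3, SF3B1, SF3B2, SF3B3, SF3B4, SF3B6 and PHF5A. They were chosen by name, out of 17157 genes with reads over annotated splice junctions, and all 9 were among the 10827 genes that passed the filter on low counts. SF3B5, a small further subunit of SF3B, has 0 annotated introns and therefore no splice junction to count. At the splice sites of the 9 genes, 273 junctions were listed, out of 455565 on the main chromosomes.

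The measurements are counts of reads across splice junctions of chromatin-bound, nascent RNA from K562 cells, a leukaemia cell line with erythroid features. There were 2 libraries of genotype SF3B1 K700E and 2 of WT genotype. All 4 carry the same treatment text, which states that a modified allele was induced with doxycycline at 1 µg/ml and that cells were taken 4 days later. All were extracted with 25 µM α-amanitin, which blocks RNA polymerase II, and depleted of polyadenylated RNA in 3 rounds and then of ribosomal RNA. The labels give neither the construct nor the clone that carries the modified allele, and do not say whether WT cells hold an inducible allele. They also do not say what a replicate is, so the p-values refer to the spread between these libraries, which may be technical.

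SF3A and SF3B turn the U2 particle into its active form and hold it on the branch point, the adenosine that attacks the 5′ end of the intron. SF3B1 closes around the helix of U2 snRNA and branch point, PHF5A lines the pocket that receives the adenosine, and the helicases that load and release the particle act on the same complex. Substitutions in the HEAT repeats of SF3B1, of which K700E is the most frequent, are recurrent in myelodysplastic syndromes with ring sideroblasts and are known for the use of 3′ splice sites (acceptors) upstream of the usual one.

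The sequences below mark the sites on which the results turn, read from GENCODE 29 transcripts on GRCh38 and written 5′ to 3′ on the gene's strand. The codon named by K700E, codon 700 of SF3B1-201, lies in exon 15 and is shown in capitals within 27 bases of reference sequence (chr2:197402096-197402122, minus strand). The next 5 windows of 30 bases are the splice sites in and around SF3B1 intron 4, with exon bases in capitals and intron bases in lower case.
SF3B1 codon 700: gatgagcagcagAAAgttcggaccatc
Donor of exon 4, chr2:197420408-197420437: TTTGCAGATGgtaattctttcccacttttc
Unannotated acceptor in intron 4, chr2:197420222-197420251: aatgcaagttttctttccagGTAGAAGGAC
Acceptor of the exon inside intron 4, chr2:197418942-197418971: gtaaagagataattttctagGCTTCTATTC
Donor of the exon inside intron 4, chr2:197418876-197418905: GCACGAAAGTgtacgtattccggattagca
Acceptor of exon 5, chr2:197418579-197418608: gttgctgttcttttctgcagGAGGGAAAAC

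The alternative sites of 2 other subunits are shown because both genotypes used them. In SF3B3, capitals mark the exon of 29 bases inside intron 11, and in SF3B2 the 3 bases at the start of exons 5 and 7 that a second acceptor leaves out.
SF3B3 exon in intron 11, chr16:70550650-70550678, plus strand: GTGGCTGGTGAAGGTGCTGATCACCACAG
SF3B3 acceptor of that exon, chr16:70550630-70550659, plus strand: cctttttttctcttccacagGTGGCTGGTG
SF3B2 start of exon 5, chr11:66055535-66055549, plus strand: CAGggagatcattcg
SF3B2 start of exon 7, chr11:66057266-66057280, plus strand: TAGctgctccagtgg

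The SF3B1 K700E libraries held 4304213 and 5322414 uniquely mapped junction reads, and the WT libraries 3582592 and 3687513. The files list junctions and no bases, and the K700E substitution was therefore not read. The labels call the cells epithelial. Of 12 erythroid and K562 marker genes, all 12 had reads, and their summed level was 1444 and 2204 CPM (read counts scaled to library size) in SF3B1 K700E and 1659 and 2112 CPM in WT. Of 10 epithelial markers 6 had reads, with KRT8 and KRT18 holding most of a summed 348 and 443 CPM in SF3B1 K700E and 483 and 371 CPM in WT, and CDH1, KRT5, CLDN3 and ESRP1 at 0. Of 5 lymphoid markers 3 had reads, and the sum was 2.02 and 4.99 CPM in SF3B1 K700E and 14.4 and 10.8 CPM in WT. The part of these marker differences in the results on the subunits was not tested.

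None of the 9 genes passed the test on gene totals, and their log2 changes ran from -0.60 in PHF5A to 0.37 in SF3A1. Gene totals are reads over annotated junctions, scaled to CPM with TMM factors (a correction for differences in composition). Over the whole table of 10827 genes, 36 (0.333%) had a higher and 65 (0.6%) a lower level in SF3B1 K700E by edgeR at an adjusted p under 0.05, against 397 (3.67%) and 697 (6.44%) by the unadjusted p. Of the 9 members, edgeR called 0 higher and 0 lower, with 0 at an unadjusted p under 0.05. DESeq2 also called 0 of the 9, beside 59 (0.344%) higher and 130 (0.758%) lower over 17157 genes. The median log2 change was -0.14 over the 9 genes and 0.00 over all genes, with 4 members above 0 and 5 below. In 3 members both SF3B1 K700E libraries lay above both WT libraries and in 3 they lay below, where 19.4% and 20.1% of all tested genes did so. Standard errors of the 9 log2 changes ran from 0.21 in SF3B3 to 0.35 in PHF5A, with 2 libraries per group and a biological coefficient of variation of 21.7%. In nascent RNA of bulk cells, fewer cells that express a gene and less RNA per cell cannot be told apart.

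Levels of different genes were compared per intron, as CPM divided by the number of introns, since reads over junctions add up along a gene. SF3A2 and SF3B1 stood highest. Per intron, SF3A2 had 24.2 and 40.0 CPM in SF3B1 K700E and 52.1 and 38.6 CPM in WT. SF3B1 had 34.7 and 28.8 CPM per intron in SF3B1 K700E and 36.6 and 41.7 CPM in WT, which overlaps SF3A2 in both genotypes. SF3B2, SF3A3 and SF3B3 formed a middle set with means of 22.4, 22.1 and 21.2 CPM per intron in SF3B1 K700E and 19.7, 17.7 and 18.2 CPM in WT, and their order did not exceed the spread in SF3B1 K700E. SF3A1, SF3B4 and SF3B6 lay lower, at means of 8.998, 6.42 and 5.998 CPM per intron in SF3B1 K700E and 6.93, 7.06 and 7.46 CPM in WT, with SF3B6 covering the range of SF3B4 in WT. PHF5A was lowest, with 2.94 and 2.91 CPM per intron in SF3B1 K700E and 4.18 and 4.61 CPM in WT.

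**Figure D1:**
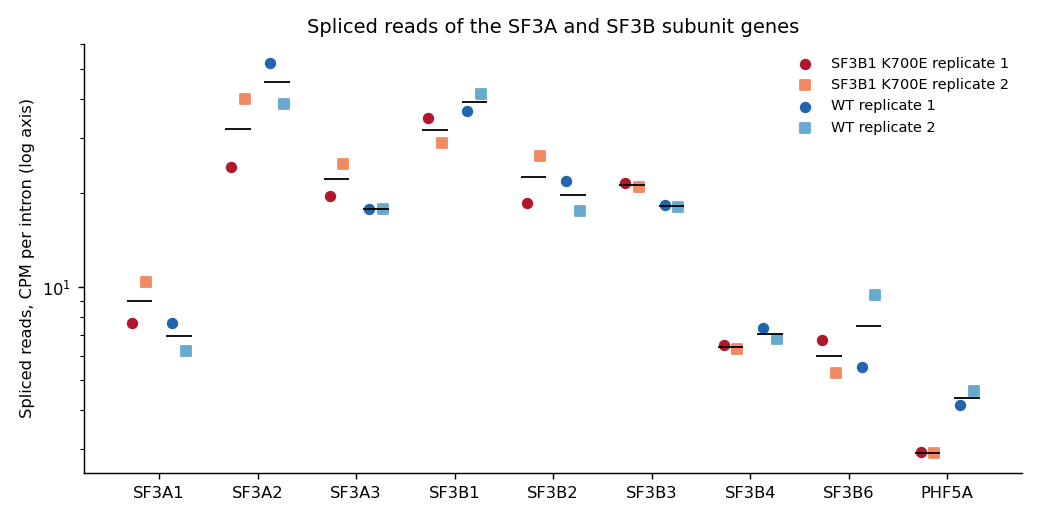
Spliced reads of the 9 subunit genes per library, as CPM per intron on a log axis; points are libraries (SF3B1 K700E left, WT right, 2 each) and black lines are group means. PHF5A lies lowest at 2.91 to 4.61 CPM per intron, and no gene passed the edgeR test.

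Among the SF3A subunits, SF3A1 carries a ubiquitin-like domain and contacts the U1 particle. Its gene total was 116 and 156 CPM in SF3B1 K700E and 116 and 94.1 CPM in WT (ENSG00000099995.18, chromosome 22, 30331988 to 30356947). The lower SF3B1 K700E library and the higher WT library were the same to 3 digits. Its log2 change of 0.37 had a standard error of 0.25 (edgeR adjusted p 0.721). SF3A2 contacts the helix formed by the branch point and U2 snRNA. It had 193 and 320 CPM in SF3B1 K700E and 417 and 309 CPM in WT (ENSG00000104897.9, chromosome 19, 2236504 to 2248679). Its libraries overlapped, and the change of -0.50 (standard error 0.28, edgeR adjusted p 0.637) was about the size of the gap between replicates. SF3A3 bridges SF3A and the rest of the U2 particle. Its total was 312 and 396 CPM in SF3B1 K700E and 284 and 285 CPM in WT (ENSG00000183431.11, chromosome 1, 37956975 to 37990921). Both SF3B1 K700E libraries were higher, with a log2 change of 0.31 and a standard error of 0.22 (edgeR adjusted p 0.742).

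Of the large SF3B subunits, SF3B1 itself (ENSG00000115524.15, chromosome 2, 197389784 to 197435091) had 845 and 702 CPM in SF3B1 K700E and 897 and 1016 CPM in WT. Both SF3B1 K700E libraries were lower, by -0.31 on the log2 scale with a standard error of 0.22 (edgeR adjusted p 0.747). SF3B2 binds SF3B4 and crosslinks to the pre-mRNA near the branch point. It had 392 and 554 CPM in SF3B1 K700E and 460 and 372 CPM in WT (ENSG00000087365.15, chromosome 11, 66050729 to 66069308), and the groups overlapped (log2 change 0.19, edgeR adjusted p 0.906). SF3B3 is a scaffold of β-propellers that SF3B1 rests on. It had 558 and 539 CPM in SF3B1 K700E and 478 and 474 CPM in WT (ENSG00000189091.12, chromosome 16, 70523788 to 70577670). Replicates were close and the groups did not overlap, but the change of 0.21 (standard error 0.21) had an edgeR adjusted p of 0.856.

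The small SF3B subunits had few reads. SF3B4, an RNA-binding protein that contacts the intron upstream of the branch point, had 32.5 and 31.6 CPM in SF3B1 K700E and 36.7 and 34.0 CPM in WT (ENSG00000143368.9, chromosome 1, 149923317 to 149928344, log2 change -0.14, edgeR adjusted p 0.940). SF3B6 had 20.2 and 15.8 CPM in SF3B1 K700E and 16.5 and 28.3 CPM in WT (ENSG00000115128.6, chromosome 2, 24067584 to 24076443). The ranges of the groups overlapped (log2 change -0.32, edgeR adjusted p 0.871). PHF5A had 9.08 and 8.73 CPM in SF3B1 K700E and 13.1 and 13.8 CPM in WT (ENSG00000100410.7, chromosome 22, 41459717 to 41468725). It showed the largest change of the 9 in size, -0.60 with a standard error of 0.35, on 36 and 42 reads in SF3B1 K700E and 43 and 46 reads in WT (edgeR adjusted p 0.669).

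Nearly all spliced reads of the 9 genes lay over the introns of 1 transcript per gene, the main transcript, whose introns summed to most reads. The 120 introns of the 9 main transcripts held 39960 of 41074 reads. Other transcripts can share these introns, so the reads are not assigned to 1 transcript. A further 19 annotated junctions held 576 reads, 45 unannotated pairs of annotated sites held 224, 55 unannotated acceptors held 242 and 34 unannotated donors held 72.

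Within SF3B1, reads over the whole of intron 4 made up a larger part of the gene's reads in SF3B1 K700E than in WT. Intron 4 (chr2:197418589-197420427, 1839 bases, minus strand) had 49 and 100 reads in SF3B1 K700E and 15 and 13 reads in WT, or 12.4 and 20.8 CPM in SF3B1 K700E and 4.58 and 3.91 CPM in WT. Both SF3B1 K700E libraries lay above both WT libraries. It was the lowest of the 24 SF3B1 introns in both WT libraries and in SF3B1 K700E replicate 1. Set against the median of the other introns of the same library, it stood at 0.333 and 0.758 in SF3B1 K700E and at 0.119 and 0.0897 in WT, a ratio of means of 5.23. The other 23 introns had between 45 and 302 reads in every library, and their ratios of means ran from 0.709 to 1.49.

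When every annotated intron was tested against the total of its gene, whole intron 4 was higher in SF3B1 K700E by 2.27 on the log2 scale with a standard error of 0.39 (edgeR adjusted p 0.00336). The test was added after the SF3B1 counts had been seen, covered 117973 junctions and called 12 (0.0102%) higher and 1 (0.000848%) lower, among which SF3B1 intron 4 ranked 5 by its p. limma voom called 5 (0.00424%) higher and 1 (0.000848%) lower. It called 1 of 129 member junctions. None of the other 119 introns of the 9 main transcripts reached an unadjusted edgeR p under 0.05, where 0.987% of all junctions did so higher and 0.58% lower, and their log2 changes ran from -0.92 to 0.71. The call was kept with limma voom (adjusted p 0.0466) and without SF3B1 K700E replicate 1 (edgeR log2 change 2.73, adjusted p 0.000701). It was lost, in the same direction, without SF3B1 K700E replicate 2 (1.71, edgeR adjusted p 1.00), without WT replicate 1 (2.48, 0.839) and without WT replicate 2 (2.07, 1.00), and with the replicate number as a block (2.23, edgeR adjusted p 0.302).

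**Figure D2:**
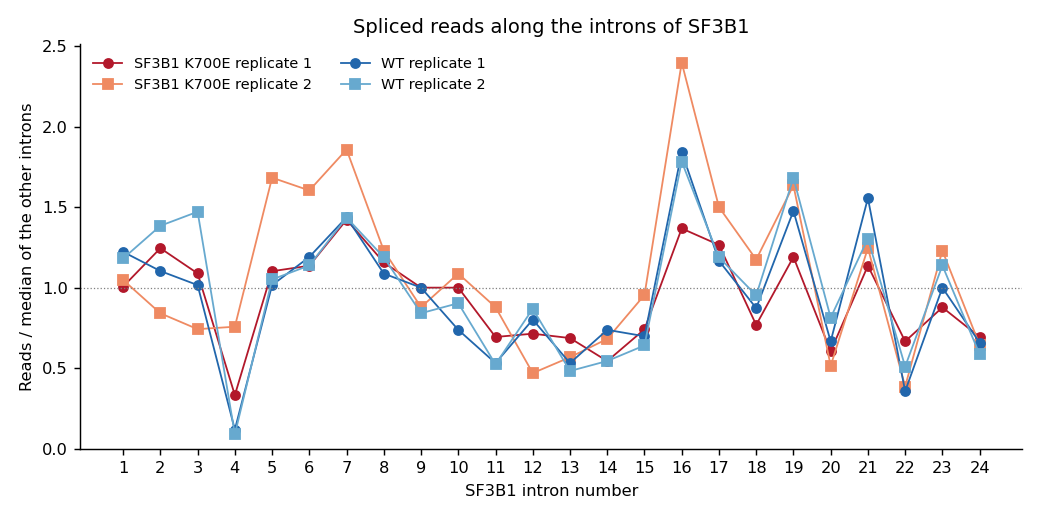
Reads over each of the 24 SF3B1 introns, divided by the median of the other introns of the same library, for the 2 SF3B1 K700E and 2 WT libraries. At intron 4 the ratio is 0.333 and 0.758 in SF3B1 K700E and 0.119 and 0.0897 in WT.

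**Figure D3:**
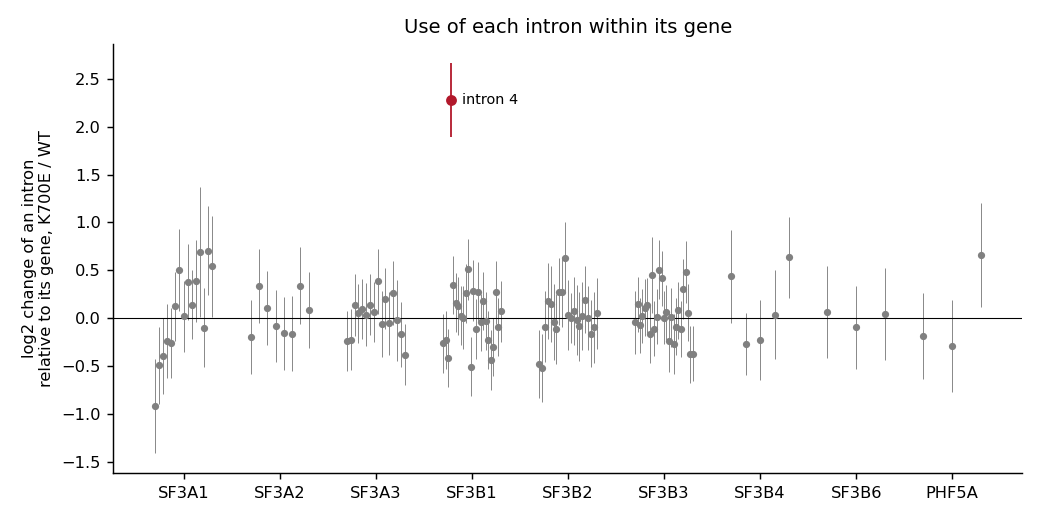
The log2 change of each of the 120 introns relative to its gene, SF3B1 K700E over WT, with its standard error; each point is 1 intron, placed in gene order from 5′ to 3′. SF3B1 intron 4 lies at 2.27, and all other introns between -0.92 and 0.71.

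Sites inside intron 4 took a larger part of the reads at its ends in WT. From the donor of exon 4, an unannotated acceptor 1643 bases upstream of exon 5, which closes an intron of 196 bases, took 13 and 5 reads in SF3B1 K700E and 21 and 14 reads in WT. That is 19.7% and 4.63% of the reads from this donor in SF3B1 K700E and 55.3% and 50.0% in WT, with no overlap. For this acceptor, the change relative to all tested junctions of the donor, itself included, was -2.31 with a standard error of 0.58 (edgeR adjusted p 0.189, unadjusted 0.000429). Leaving out SF3B1 K700E replicate 1 gave -3.51, whereas leaving out replicate 2 of that genotype gave -1.40. limma voom called this acceptor lower and whole intron 4 higher, both at an adjusted p of 0.0401. Of all junctions in that test it called 9 (0.0385%) higher and 6 (0.0257%) lower. No other junction of this donor was tested, so both calls are the same contrast, with limma voom log2 changes of -3.38 and 3.38. limma voom sets a junction against the other junctions of its donor, so its log2 changes are not on the edgeR scale. For whole intron 4 edgeR gave a log2 change of 0.99 in acceptor choice and 1.23 in donor choice (edgeR adjusted p 1.00 in both). Another 56 bases of intron 4 (chr2:197418896-197418951) are an annotated exon of SF3B1-202. The junction from its donor to exon 5, an intron of 307 bases, had 19 and 17 reads in SF3B1 K700E and 31 and 23 reads in WT. It took 27.9% and 14.4% of the reads into exon 5 in SF3B1 K700E and 67.4% and 63.9% in WT (log2 change -1.72, standard error 0.46, edgeR adjusted p 1.00, unadjusted 0.000953).

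The acceptor of that annotated exon was joined to exon 4 by 4 and 3 reads in SF3B1 K700E and 0 and 0 reads in WT. Reads into exon 5 from the inner donor thus outnumbered reads from exon 4 to the matching acceptor in all 4 libraries. The annotated exon's length of 56 bases is not a multiple of 3. The same donor also ends a stretch of 1336 bases that begins at the unannotated acceptor (chr2:197418896-197420231). What lay upstream of the inner donor in its reads was not tested. Over all junctions at both ends, whole intron 4 held 57.6% (95% Wilson interval 47.0 to 67.6%) and 79.4% (71.5 to 85.5%) of the reads in SF3B1 K700E, and 21.7% (13.6 to 32.8%) and 25.5% (15.5 to 38.9%) in WT. The means were 68.5% ± 15.4 in SF3B1 K700E and 23.6% ± 2.65 in WT (SD, n = 2 each, 2-sided exact permutation p 0.333, the smallest that 2 against 2 can give). Summed over whole and part introns, the reads at both ends were 85 and 126 in SF3B1 K700E and 69 and 51 in WT. That is 21.4 and 26.2 CPM in SF3B1 K700E and 21.1 and 15.3 CPM in WT. A transcript spliced at sites inside the intron can add a read at each end. Part introns therefore weigh more than whole intron 4 in these shares and sums. The intervals cover counting error only, since reads copied by PCR are not independent molecules. Whether the induced allele differs in sequence at this intron is not stated in the labels and was not tested.

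**Figure D4:**
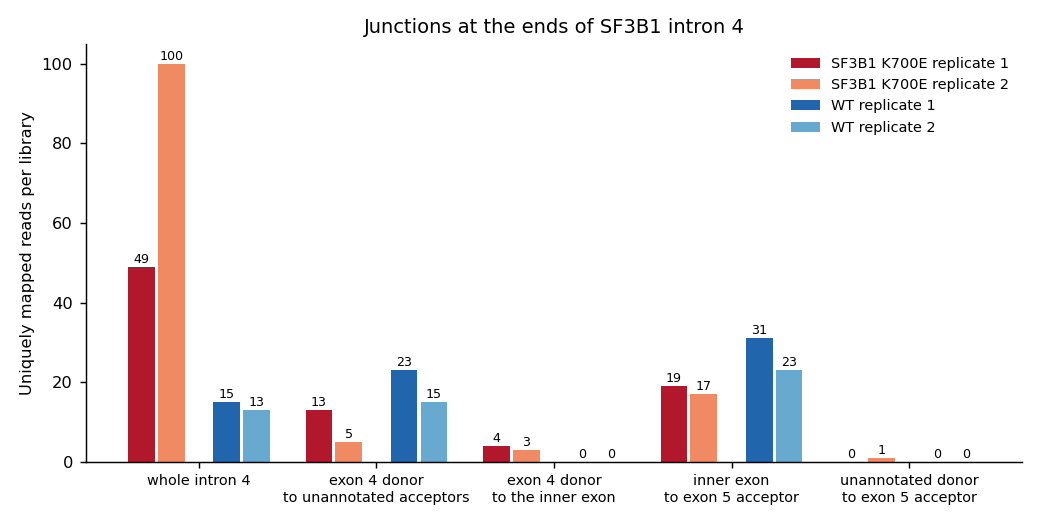
Uniquely mapped reads per library over each kind of junction at the ends of SF3B1 intron 4 (bars start at 0, SF3B1 K700E left, WT right). In the bar labels, inner exon names the acceptor or the donor of the annotated exon of 56 bases. Reads at its donor were not shown to hold that whole exon. Whole intron 4 has 49 and 100 reads in SF3B1 K700E and 15 and 13 in WT. The junction from the inner donor to exon 5 has 19 and 17 in SF3B1 K700E and 31 and 23 in WT.

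SF3B1 also held an acceptor just upstream of an annotated one, with reads in both SF3B1 K700E libraries and in neither WT library. In intron 12, an unannotated acceptor 24 bases upstream of exon 13 (chr2:197403060-197403584) had 12 and 5 reads in SF3B1 K700E and 0 and 0 reads in WT. It took 10.3% and 7.46% of the reads from its donor in SF3B1 K700E, and 0 of 101 and 0 of 127 reads in WT. The WT count of 0 over the group allows up to 1.32%, against 9.24% of the pooled SF3B1 K700E reads. Counting error of the SF3B1 K700E reads and the spread between libraries are not part of these values. It did not pass (edgeR adjusted p 0.145, unadjusted 0.000285), nor under any alternative tried. Across the genome 31 of 23366 junctions (0.133%) were called higher and 1 (0.00428%) lower in this test of acceptor choice, and 0 of the 35 member junctions in it were called in either direction, with 3 higher and 1 lower by the unadjusted p (2.46% and 0.715% of all junctions). A stretch of 24 bases is a whole number of codons. The other 8 genes had only 4 unannotated acceptors between 10 and 30 bases upstream of an annotated one, with 1 read each.

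Other alternative sites of SF3B1 were used in both genotypes. Between exons 20 and 21, an unannotated acceptor (chr2:197399039-197400054) took 20 and 20 reads in SF3B1 K700E and 10 and 18 reads in WT, or 18.3% and 22.7% of the reads from its donor in SF3B1 K700E and 10.6% and 13.2% in WT. The annotated donor 70 bases further on (chr2:197398582-197398968) joined exon 21 by 21 and 23 reads in SF3B1 K700E and 23 and 30 reads in WT. The share of the unannotated acceptor did not overlap between the groups, and neither this junction nor the one from the annotated donor passed the test (edgeR unadjusted p 0.165 and 0.902). In intron 14, just before the exon with codon 700, an annotated alternative donor had 8 and 5 reads in SF3B1 K700E and 4 and 1 reads in WT (edgeR unadjusted p 0.139). Skipping of exon 7 was seen in 3 and 2 reads in SF3B1 K700E and 1 and 5 reads in WT.

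SF3B3 held most of the other alternative reads. Its exon of 29 bases inside intron 11, annotated in SF3B3-209 as a target of nonsense-mediated decay, was entered by 32 and 33 reads in SF3B1 K700E and 33 and 32 reads in WT. It was left by 39 and 41 reads in SF3B1 K700E and 27 and 34 reads in WT. Entry took 28.8% and 23.6% of the reads from the donor of exon 11 in SF3B1 K700E and 46.5% and 39.5% in WT. These shares did not overlap, but the log2 change of -0.73 had an edgeR adjusted p of 1.00 (unadjusted 0.0802). The exon's 29 bases are not a multiple of 3.

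Skipping of SF3B3 exon 8, which has 104 bases, took 12 and 10 reads in SF3B1 K700E and 0 and 3 reads in WT. That was 14.0% and 12.7% of the reads from the donor of exon 7 in SF3B1 K700E and 0% and 5.45% in WT (log2 change 2.16, standard error 0.88, edgeR adjusted p 1.00, unadjusted 0.0193). The log2 change was 1.26 without WT replicate 1 and 6.11 without WT replicate 2, where the remaining WT library had 0 reads and the fitted value depends on the prior count. A longer skip, from exon 18 to exon 21, had 6 and 10 reads in SF3B1 K700E and 5 and 10 reads in WT. In total 17 unannotated pairs of annotated SF3B3 sites were seen, over 47 and 42 reads in SF3B1 K700E and 19 and 33 reads in WT.

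The unannotated pair of SF3A3 with most reads skips exon 10, of 68 bases, and had 6 and 6 reads in SF3B1 K700E and 1 and 0 reads in WT (donor choice log2 change 2.57, edgeR adjusted p 1.00, unadjusted 0.0461). A second one from the same donor, which skips 3 exons, had 3 and 4 reads in SF3B1 K700E and 3 and 2 reads in WT. The annotated alternative of SF3A3 skips exons 3 and 4 and had 0 and 3 reads in SF3B1 K700E and 0 and 5 reads in WT. In the test of donor choice, edgeR called 1 of 22976 junctions (0.00435%) higher and 1 (0.00435%) lower, and 0 of 30 member junctions in either direction, with 2 higher and 1 lower by the unadjusted p (1.55% and 0.622% of all junctions).

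In SF3B2, the acceptors 3 bases downstream are annotated. At exon 5 the downstream acceptor took 3 and 9 reads in SF3B1 K700E and 3 and 7 reads in WT, or 5.26% and 12% of the donor's reads in SF3B1 K700E and 8.82% and 14.9% in WT. At exon 7 it took 3 and 7 reads in SF3B1 K700E and 3 and 4 reads in WT. Shares overlapped at both (edgeR unadjusted p 0.547 and 0.954). The unannotated SF3B2 junction with most reads, an unannotated donor in intron 9, had 1 and 4 reads in SF3B1 K700E and 0 and 0 reads in WT.

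Alternatives of the remaining subunits were rare. SF3A1 had an annotated alternative from exon 1 with 2 and 2 reads in SF3B1 K700E and 3 and 3 reads in WT, and an unannotated acceptor in intron 5 with 5 and 2 reads in SF3B1 K700E and 3 and 0 reads in WT. SF3A2, with 8 annotated junctions and no annotated alternative in use, had an unannotated donor in intron 2 with 1 and 2 reads in SF3B1 K700E and 4 and 7 reads in WT (edgeR adjusted p 1.00, unadjusted 0.0519). SF3B4 and SF3B6 had 2 unannotated reads each. PHF5A had 3 unannotated reads, all in WT, and its annotated alternative in intron 2 had 0 and 0 reads in SF3B1 K700E and 2 and 0 reads in WT.

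The share of the 9 genes' reads over unannotated junctions did not differ between the genotypes beyond the spread of the libraries. The share was 1.55% (155 of 9975 reads) and 1.24% (165 of 13258) in SF3B1 K700E and 1.09% (98 of 8989) and 1.36% (120 of 8852) in WT. The means were 1.40% ± 0.219 in SF3B1 K700E and 1.22% ± 0.188 in WT (SD, n = 2 each, 2-sided exact permutation p 0.667), and the libraries overlapped. Among the genes with at least 1000 reads SF3B3 had the highest mean share in both genotypes, at 2.51% and 1.93% in SF3B1 K700E and 1.57% and 2.54% in WT. Unannotated pairs of annotated sites, mostly skipped exons, took 0.732% and 0.551% of the reads in SF3B1 K700E and 0.367% and 0.508% in WT. These did not overlap, with means of 0.641% ± 0.128 in SF3B1 K700E and 0.438% ± 0.0999 in WT (SD, n = 2 each, 2-sided exact permutation p 0.333, the smallest possible), a split made after the counts were seen.

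**Figure D5:**
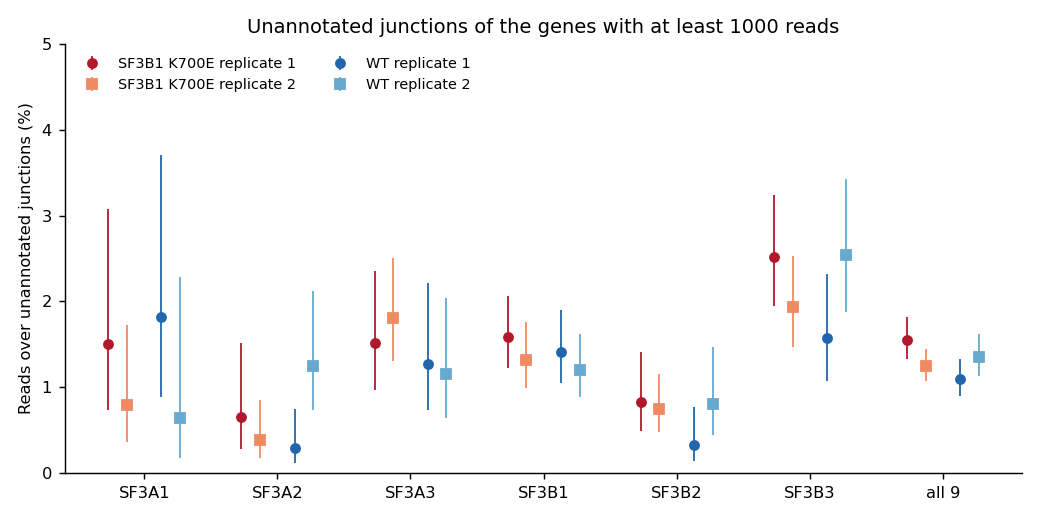
Share of reads over unannotated junctions per library, with 95% Wilson intervals, for the 6 genes with at least 1000 reads and for all 9 (SF3B1 K700E left, WT right). For all 9 the shares are 1.55% and 1.24% in SF3B1 K700E and 1.09% and 1.36% in WT.

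Where reads lay along the genes was measured as the share in the introns past the middle of each gene. The median of this share over the 9 genes was 47.3% and 51.5% in SF3B1 K700E and 50.7% and 46.4% in WT (means 49.4% ± 2.96 in SF3B1 K700E and 48.5% ± 3.03 in WT, SD, n = 2 each, 2-sided exact permutation p 0.667).

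Around the 9 subunits, a list of 47 other spliceosome genes was read, of which 46 were tested. By the adjusted p edgeR called 0 of the 46, where 0.333% of all tested genes were called higher and 0.6% lower. By the unadjusted p 1 was higher and 1 lower, where 3.67% and 6.44% of all tested genes were. The median log2 change was 0.10, against 0.00 over all genes. SMNDC1, which takes part in forming the mature spliceosome, had 39.1 and 41.0 CPM in SF3B1 K700E and 19.6 and 26.5 CPM in WT (log2 change 0.80, edgeR adjusted p 0.322). RBM17, which binds the SF3B1 tail, had 189 and 246 CPM in SF3B1 K700E and 355 and 307 CPM in WT (log2 change -0.61, edgeR adjusted p 0.374). SNRPA1, the U2 A′ protein, had 89.1 and 101 CPM in SF3B1 K700E and 68.8 and 74.6 CPM in WT, and its partner SNRPB2 had 10.8 and 14.97 CPM in SF3B1 K700E and 14.98 and 12.6 CPM in WT. SUGP1, whose contact with SF3B1 is known to be lost with K700E, had 61.1 and 66.3 CPM in SF3B1 K700E and 80.7 and 65.2 CPM in WT. The helicase DHX15 had 367 and 339 CPM in SF3B1 K700E and 252 and 300 CPM in WT. DDX46, the helicase that remodels the U2 particle, had 420 and 371 CPM in SF3B1 K700E and 317 and 353 CPM in WT. SF1, the first protein at the branch point, had 329 and 393 CPM in SF3B1 K700E and 342 and 360 CPM in WT. U2AF2, which binds the polypyrimidine tract, had 247 and 338 CPM in SF3B1 K700E and 259 and 224 CPM in WT. HTATSF1, which holds SF3B1 before activation, had 15.9 and 18.9 CPM in SF3B1 K700E and 16.2 and 15.6 CPM in WT. The lowest edgeR adjusted p among these partners, from SNRPA1 to HTATSF1, was 0.655. U2AF1 had 1.01 and 0.832 CPM in SF3B1 K700E and 0.917 and 0.301 CPM in WT and was not tested. These totals leave out multiply mapped reads, so they give no measure of how much U2AF1 RNA the cells held. How many U2AF1 reads were left out in this way is not given here.

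The genes whose levels most resembled those of SF3B1, by the distance of centred log2 CPM over 4 libraries among 5411 genes above the median level, were TPP2, DSTYK and STRBP. TPP2 had 527 and 431 CPM in SF3B1 K700E and 549 and 627 CPM in WT, a distance of 0.0187. DSTYK lay at a distance of 0.0321 and STRBP at 0.0359. Such a likeness over 4 libraries is a description only.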

How the data were processed

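Chromatin-bound RNA of 4 K562 libraries, 2 of SF3B1 K700E and 2 of WT, was analysed from STAR junction tables. Per the run logs deposited by the authors, reads were aligned with STAR 2.7.10a to GRCh38.p12 with GENCODE junctions of release 27, and of release 22 at mapping. The deposited values are raw counts of uniquely and of multiply mapped reads per junction, per the fixed columns of STAR, with no normalization. The deposited tables also give the longest overhang of a read. Unspliced RNA was not analysed here. Strand came from the splice motif.

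The members and lists were chosen with earlier results of these data known. Uniquely mapped reads over annotated junctions were assigned to genes with GENCODE 29, and 3.98% lay over introns of more than 1 gene and were left out. A read across several introns counts at each. Gene totals were filtered with filterByExpr, scaled by TMM and tested with edgeR 4.0.16 (quasi-likelihood, in R 4.3.3), with genotype as the single term. Junction use was tested with diffSpliceDGE for junctions that share a donor (acceptor choice) or an acceptor (donor choice), and for annotated junctions within a gene. Tested junctions had a canonical splice motif, 10 reads over the 4 libraries and a cluster of at least 2. A junction's edgeR log2 change is relative to its whole cluster, itself included. With limma voom it is relative to the other junctions of the cluster. Adjustment was Benjamini-Hochberg over all features, at 0.05. A standard error is the absolute log2 change over the square root of F. Library shares were compared by the exact permutation test over 6 assignments. Intervals are 95% Wilson intervals, and a group at 0 was given 3 counts. The tests were tried on simulated counts.

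Alternatives were DESeq2 1.42.0, RLE factors, limma 3.58.1 voom with diffSplice, other read minimums, multiply mapped reads, an overhang of 20 bases, shared introns, all canonical junctions, blocks and each library left out. Named were all 9 members, junctions passing a test, each member's most read alternative and unannotated junction, unannotated acceptors 10 to 30 bases upstream with at least 10 reads, and the genes nearest SF3B1. Further skips, SF3B3 exon 8 among them, were chosen after their values were seen. The labels do not say what a replicate number stands for, and deviations of same-numbered libraries correlated at -0.21 across genes.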

Additional observations from a re-analysis of the deposited data

How the results depend on the processing

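For the 9 gene totals, edgeR and DESeq2 called 0 under every alternative run, and the direction changed only for SF3B2, to -0.072 without SF3B1 K700E replicate 2 (range -0.072 to 0.42 with 1 library left out), and for SF3B6, to 0.14 without WT replicate 2 (range -0.65 to 0.14). In acceptor choice, limma voom called 1 member junction higher and 1 lower, both at the donor of SF3B1 exon 4 (log2 changes 3.38 and -3.38, adjusted p 0.0401), where edgeR called 0. Both calls are the same contrast, since no other junction of that donor was tested. In donor choice 0 member junctions were called under every alternative. Whole SF3B1 intron 4, tested within its gene, was not called with the replicate number as a block (log2 change 2.23, edgeR adjusted p 0.302, 0 member junctions called), and with 1 library left out it ranged from 1.71 to 2.73, with 0 or 1 member junctions called. The pairing is not given by the labels, and with the numbers crossed the call stood, while the block changed no other call of a member. Over all features, the counts called higher and lower were 0 to 134 and 0 to 326 for gene totals (36 and 65 with all libraries and no block), 5 to 42 and 0 to 6 for acceptor choice (31 and 1), 0 to 1 each for donor choice (1 and 1) and 0 to 12 and 0 to 2 for introns within a gene (12 and 1). With 1 library left out, the lone library of its group is assumed to vary like the others. The difference in the unannotated share ranged from 0.0216 to 0.331 percentage points and that in the 3′ share from -1.28 to 3.01 percentage points with 1 library left out. The cause of these differences was not tested. Depth was lowest for PHF5A, with 36 to 46 reads in each library.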
